A study of Mus musculus with 28 samples.

Results

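Gpnmb, Trem2, Spp1, Lgals3, Cd9, Msr1 and Gpr34 are 7 genes known from lipid-associated macrophages, and their expression was followed in mouse fat over 17 days of feeding with conjugated linoleic acid. Each gene was taken from the probe sets that name it alone, and of several for 1 gene the brightest on average over the 28 arrays stood for it. This found 6 of the 7 genes, with 11 probe sets, among the 18194 genes tested. Spp1 was not analysed here.

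Lipid-associated macrophages are macrophages that gather around damaged or dying fat cells, take up their lipid and digest it in lysosomes. Their receptor TREM2 binds lipids and lipoproteins at the cell surface and signals inward through the adaptor encoded by Tyrobp and the kinase encoded by Syk. In obese adipose tissue of mice such cells form crowns around dead adipocytes and are known for high Trem2, Gpnmb, Cd9, Lgals3 and Spp1.

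Retroperitoneal fat pads came from 9-week-old C57BK/6J mice, the strain name as the submitters spell it. One diet held trans-10 cis-12 conjugated linoleic acid (CLA), a fatty acid that lowers body fat in mice, at 0.5%, and the other was the control diet. Pads were taken after 1, 2, 3, 4, 7, 10 and 17 days on each diet, which gives 14 groups of 2 Affymetrix arrays, 28 in all. The pads of 10 mice were pooled before RNA extraction, so no value belongs to a single mouse. Pools of 10 for each group would come to 140 mice, the number in the series record, and pools of 10 for each array to 280. If both arrays of a group hold 1 pool, the p-values of a day measure technical spread only. Every value below is a log2 RMA value of a probe set or a difference of such values, where a difference of 1 is a doubling.

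The pads carried their labelled tissue's markers in both diets. Over 8 adipocyte genes the mean log2 level of an array lay between 9.37 and 10.39 on CLA and between 10.73 and 11.74 on control. Over 11 general macrophage genes it lay between 7.92 and 10.19 in CLA arrays, against 7.58 to 7.97 in 13 of the 14 control arrays. The remaining one, replicate 1 of control day 2, stood apart at 8.88. It also stood apart for 4 monocyte genes, at 9.18 against 6.10 to 6.91 in the other control arrays, and for 9 cell cycle genes, at 7.61 against 5.29 to 6.03. Some results of the 6 genes that rest on this array are given with and without it. Counts, medians and shares of all genes and of the other lists include it unless stated. On day 1 the log2 signal of the 3′ minus the 5′ control probe set of Actb was 2.72 and 2.28 in the CLA arrays and 2.77 and 1.50 in the control arrays, against 0.77 to 1.87 in the other 24 arrays. Arrays of the same group correlated at 0.979 to 0.995 across genes, and with 2 of them a group each daily value has limited precision.

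The 6 genes did not start together. On day 1 only Lgals3 and Msr1 had risen (2 of 6, where 7.96% of all genes tested rose), and Gpr34 had fallen (1 of 6, where 10.8% of all genes fell). Gpnmb and Trem2 joined on day 2 (4 of 6, against 4.84% of all genes), where the count was 2, 1 and 0 without replicate 1 of CLA day 2, replicate 2 of CLA day 2 and replicate 2 of control day 2. The same 4 genes were called on day 3 (against 11.3%). Cd9 made it 5 of 6 on day 4 (against 12.8%). All 6 measured genes were higher on CLA on day 7 (against 8.74%), day 10 (against 10%) and day 17 (against 11.5%). On day 10 the count was 4 or 5 without any 1 of the 4 arrays of that day, and on day 4 it was 4 without replicate 1 of control day 4. A gene is called where limma's adjusted p is under 0.05.

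The median difference of the 6 genes was 0.25, 1.57, 2.76, 3.02, 2.73, 3.00 and 3.22 on days 1, 2, 3, 4, 7, 10 and 17. Over all genes tested the median lay between -0.07 and 0.01. Both CLA arrays lay above both control arrays for 3, 4, 5, 6, 6, 6 and 6 of the 6 genes on those days. Among all genes this was so for 22.5%, 19%, 29.1%, 28.5%, 23.7%, 23.4% and 30.1%.

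**Figure D1:**
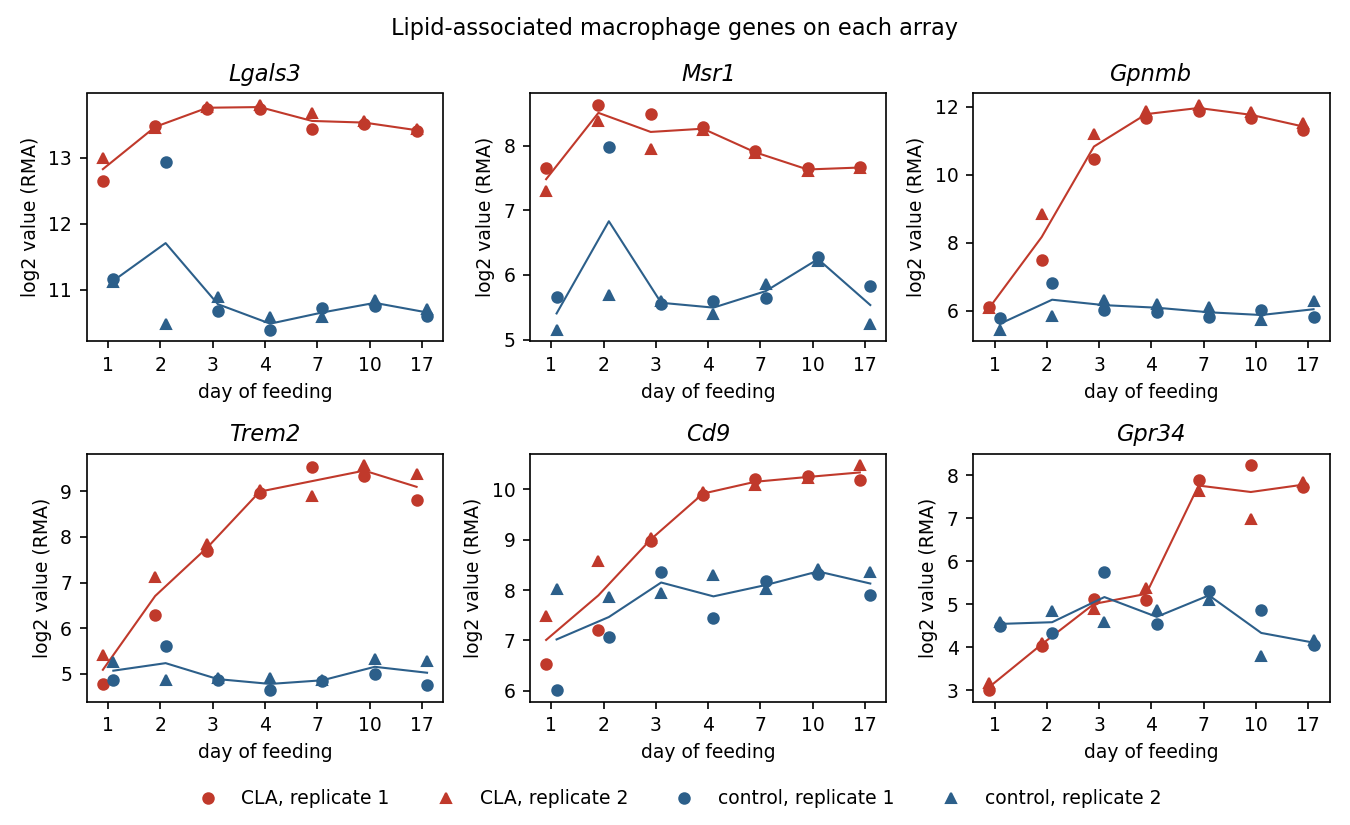
Log2 RMA value (vertical axes) of the 6 genes on each of the 28 arrays by day of feeding (horizontal axes, not to scale in time), with CLA in red and control in blue, replicate 1 as circles, replicate 2 as triangles and lines through the group means. The CLA arrays of Lgals3 and Msr1 lie above control on day 1, those of Gpr34 lie below control on day 1 and at 6.99 or more from day 7, and replicate 1 of control day 2 lies high for Lgals3 (12.93) and Msr1 (7.97).

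Lgals3 encodes galectin-3, a lectin that binds galactose-bearing sugars inside and outside the cell and is abundant in macrophages. On CLA its values (replicate 1, replicate 2) were 12.65 and 13 on day 1, 13.48 and 13.45 on day 2, 13.74 and 13.77 on day 3, 13.73 and 13.80 on day 4, 13.43 and 13.68 on day 7, 13.51 and 13.55 on day 10, and 13.40 and 13.43 on day 17. On the control diet they were 11.16 and 11.11, 12.93 and 10.48, 10.67 and 10.89, 10.39 and 10.58, 10.72 and 10.59, 10.76 and 10.84, and 10.60 and 10.71 on the same days. No CLA array overlapped a control array of its day, and the control array nearest to CLA was replicate 1 of day 2. The CLA values were close to the highest value of the whole table, 14.18.

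Lgals3 was higher on CLA by 1.69 ± 0.42 on day 1 (SE, adjusted p = 0.00719) and by 1.76 ± 0.42 on day 2 (adjusted p = 0.0103). The largest difference came on day 4, at 3.28 ± 0.42, which is 9.71-fold (adjusted p = 8.29e-06). From then on it stayed between 2.73 and 2.90. Without replicate 1 of control day 2 the day 2 difference was 2.98 ± 0.17 (adjusted p = 3.57e-09), about the size of day 3 (2.97), and the day 1 value kept its size at 1.69 (adjusted p = 8.79e-08). Over all 7 days Lgals3 averaged 13.47 on CLA and 10.89 on control, a difference of 2.59 ± 0.20 (adjusted p = 2.75e-05). This difference was 2.76 without replicate 1 of control day 2. Among CLA days the order was day 4, 3, 7, 10, 2, 17 and 1, in which the neighbouring days 4 and 3, and days 7 and 10, overlapped in their arrays. The day 1 call was lost without replicate 2 of CLA day 1 (1.52, adjusted p = 0.0596), and the day 2 call without replicate 1 (1.75, adjusted p = 0.053) or 2 (1.78, adjusted p = 0.0599) of CLA day 2 or replicate 2 of control day 2 (0.53, adjusted p = 0.13).

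Msr1 encodes the class A scavenger receptor, through which macrophages take up modified lipoproteins. On CLA its values were 7.66 and 7.30 on day 1, 8.63 and 8.38 on day 2, 8.48 and 7.94 on day 3, 8.28 and 8.24 on day 4, 7.91 and 7.88 on day 7, 7.65 and 7.61 on day 10, and 7.67 and 7.65 on day 17. On the control diet they were 5.66 and 5.15, 7.97 and 5.69, 5.55 and 5.59, 5.59 and 5.40, 5.64 and 5.86, 6.28 and 6.21, and 5.83 and 5.24. Both CLA arrays exceeded both control arrays on every day, although replicate 1 of control day 2 came within the range of the later CLA arrays.

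The rise of Msr1 was already 2.07 ± 0.42 on day 1 (adjusted p = 0.00149), reached 2.77 ± 0.42 or 6.80-fold on day 4 (adjusted p = 5.79e-05) and was 2.12 ± 0.42 on day 17 (adjusted p = 0.00105). The smallest difference was 1.39 ± 0.42 on day 10 (adjusted p = 0.0249). The day 10 call was lost when any 1 of the 4 arrays of that day was left out, with differences of 1.35 to 1.42 and adjusted p-values of 0.0857 to 0.112. The day 2 difference was 1.67 ± 0.42 (adjusted p = 0.0146), and 2.82 ± 0.25 (adjusted p = 4.64e-07) without replicate 1 of control day 2. It was not called without replicate 1 of CLA day 2 (1.55, adjusted p = 0.0909), replicate 2 of CLA day 2 (1.80, adjusted p = 0.0568) or replicate 2 of control day 2 (0.54, adjusted p = 0.44). Over all 7 days Msr1 averaged 7.95 on CLA and 5.83 on control, a difference of 2.12 ± 0.16 (adjusted p = 2.60e-05). This difference was 2.28 without replicate 1 of control day 2. On CLA the highest day was day 2, and day 10 overlapped day 1 at the low end.

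All 4 probe sets of Msr1 rose over the 7 days. The 3 further ones gave 3.09 ± 0.14 (1448061_at, adjusted p = 5.01e-06), 1.75 ± 0.11 (1425434_a_at, adjusted p = 1.77e-05) and 0.65 ± 0.08 (1425435_at, adjusted p = 0.000325). The first 2 of these were called on each of the 7 days, with daily differences of 2.52 to 3.63 and 1.29 to 2.23. The third, which was dim on all arrays (3.38 to 4.16 on CLA and 2.95 to 3.38 on control), did not pass on days 3 and 10, with 0.39 (adjusted p = 0.153) and 0.42 (adjusted p = 0.123).

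Trem2 encodes the lipid-binding receptor named above. Its CLA values were 4.77 and 5.41 on day 1, 6.28 and 7.13 on day 2, 7.69 and 7.85 on day 3, 8.95 and 9.03 on day 4, 9.54 and 8.90 on day 7, 9.33 and 9.57 on day 10, and 8.81 and 9.38 on day 17. The control values were 4.87 and 5.27, 5.60 and 4.87, 4.87 and 4.90, 4.64 and 4.92, 4.85 and 4.87, 4.99 and 5.32, and 4.76 and 5.29. The diets overlapped on day 1 and on no later day, and the CLA arrays climbed without overlap over days 1, 2, 3 and 4 and then overlapped one another.

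The difference in Trem2 was 0.02 ± 0.30 on day 1 (adjusted p = 0.98), 1.47 ± 0.30 on day 2 (adjusted p = 0.00397), 2.88 ± 0.30 on day 3 (adjusted p = 1.38e-06) and 4.21 ± 0.30 on day 4 (adjusted p = 1.55e-08). It was largest on day 7 at 4.36 ± 0.30, or 20.5-fold (adjusted p = 1.66e-08), and was 4.07 ± 0.30 on day 17 (adjusted p = 2.28e-08). The control values ran from 4.64 to 5.60, where the median of all values in the table was 4.14. Whether such levels are above background was not tested, so the fold is a ratio of RMA values only. The day 2 call was lost without replicate 2 of CLA day 2 (1.05, adjusted p = 0.0851) or without replicate 2 of control day 2 (1.10, adjusted p = 0.138), and was 1.84 ± 0.35 (adjusted p = 0.00122) without replicate 1 of control day 2.

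A further probe set of Trem2, 1421226_at, did not follow. Its values ran from 3.69 to 4.44 on CLA and from 3.59 to 4.11 on control, near the median of all values in the table (4.14). Its daily differences lay between -0.15 and 0.21, none passed, and over all 7 days the difference was 0.07 ± 0.06 (adjusted p = 0.473). The description of Trem2 thus rests on 1 of its 2 probe sets, 1421792_s_at, whose suffix marks probes that can match more than 1 transcript.

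**Figure D2:**
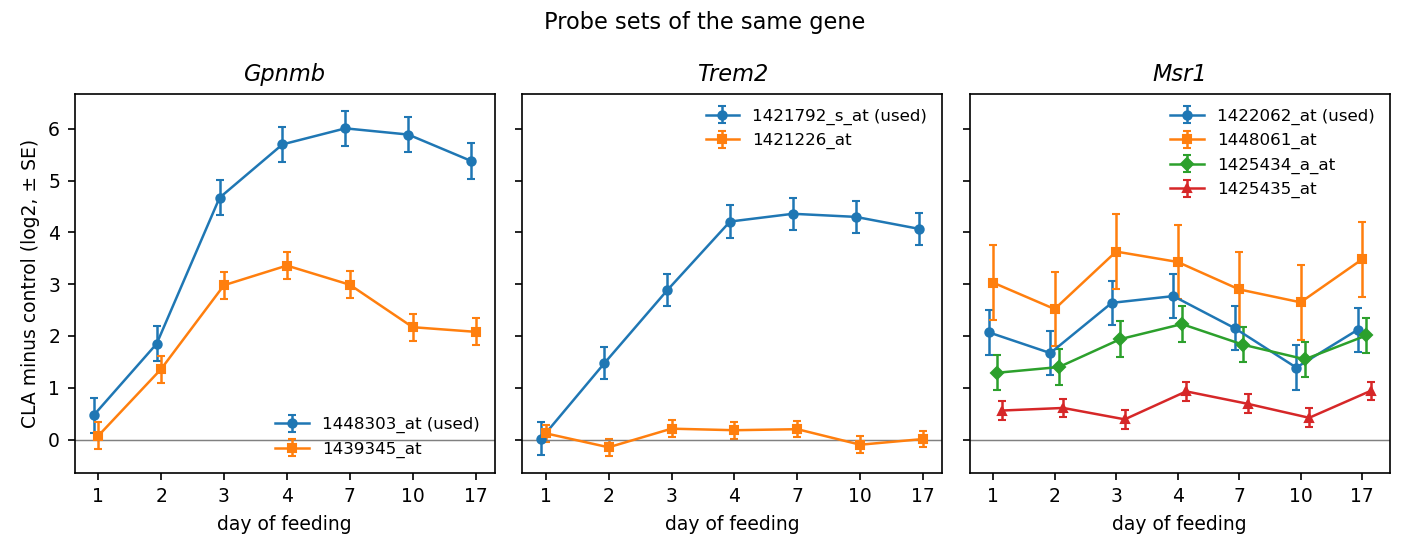
CLA minus control on each day (log2, vertical axis, with the SE of the model) for every probe set of Gpnmb, Trem2 and Msr1, with the probe set that stood for the gene marked as used. Both probe sets of Gpnmb and all 4 of Msr1 lie above 0 on every day, while Trem2 1421226_at stays between -0.15 and 0.21.

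Gpr34 encodes a G protein-coupled receptor for lysophosphatidylserine found on macrophages, microglia and mast cells. On CLA its values were 3.00 and 3.16 on day 1, 4.03 and 4.11 on day 2, 5.12 and 4.90 on day 3, 5.10 and 5.39 on day 4, 7.90 and 7.63 on day 7, 8.24 and 6.99 on day 10, and 7.73 and 7.84 on day 17. The control values were 4.50 and 4.59, 4.33 and 4.84, 5.76 and 4.58, 4.54 and 4.88, 5.31 and 5.11, 4.86 and 3.81, and 4.06 and 4.16. The CLA arrays lay below both control arrays on days 1 and 2 (where 22.4% and 23.5% of all genes did), overlapped them on day 3 and lay above them from day 4.

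Gpr34 was thus lower on CLA at first and higher later. The difference was -1.46 ± 0.37 on day 1, a ratio of 0.362 (adjusted p = 0.00756), and -0.51 (adjusted p = 0.524), -0.16 (adjusted p = 0.856) and 0.53 (adjusted p = 0.367) on days 2, 3 and 4. It was 2.55 ± 0.37 on day 7 (adjusted p = 4.95e-05), 3.28 ± 0.37 on day 10 (adjusted p = 3.14e-06) and 3.68 ± 0.37 or 12.8-fold on day 17 (adjusted p = 7.82e-07). The day 2 difference was -0.77 without replicate 1 of control day 2. Over all 7 days, where days count as replicates, Gpr34 averaged 5.80 on CLA and 4.67 on control and did not pass (1.13 ± 0.63, adjusted p = 0.205). The control values of Gpr34, 3.81 to 5.76, lay around the median of all values in the table (4.14), as did its CLA values on day 2, and those on day 1 lay below it. Whether such levels are above background was not tested, so these folds are ratios of RMA values only. The fall on day 1, like the day 1 rises of Lgals3 and Msr1, stands on the day with the high 3′ minus 5′ control signal. It was not called when the replicate 1 arrays of days 1 and 2 were left out in both diets (-1.43, adjusted p = 0.0859). Days 17, 7 and 10 overlapped in the CLA arrays and lay above all earlier CLA days.

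Some mast cell genes were higher on the same days as Gpr34. Of 6 mast cell genes, 0, 0, 0, 0, 2, 3 and 4 rose on days 1, 2, 3, 4, 7, 10 and 17 by limma (0, 1, 2, 0, 3, 4 and 5 had an unadjusted p under 0.05 in either direction), with medians of 0.00, -0.12, -0.26, -0.16, 0.57, 1.08 and 1.79. Cpa3, a mast cell protease gene, was higher by 1.32 on day 7 (adjusted p = 0.00187) and by 2.39 on day 17 (adjusted p = 4.13e-06). Kit, a mast cell growth factor receptor, was called as a fall on day 2 (-0.75, adjusted p = 0.0437) and day 3 (-0.99, adjusted p = 0.00322). On day 7 it differed by -0.29 (adjusted p = 0.502), and Ms4a2, a subunit of the IgE receptor, was not called on any day. Of all genes tested 8.74%, 10% and 11.5% rose on days 7, 10 and 17. An unadjusted p under 0.05 in either direction was found for 5334, 3714, 5626, 5846, 4822, 5529 and 5632 of the 18194 genes tested on the 7 days. The mean level of the 6 genes on an array ran from 4.98 to 6.86 on CLA and from 4.90 to 5.60 on control. Their part in the result for Gpr34 was not tested.

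Gpnmb encodes a transmembrane glycoprotein of endosomes and lysosomes that macrophages make when their lysosomes are loaded. Its CLA values were 6.10 and 6.07 on day 1, 7.50 and 8.83 on day 2, 10.47 and 11.19 on day 3, 11.68 and 11.89 on day 4, 11.87 and 12.06 on day 7, 11.67 and 11.86 on day 10, and 11.32 and 11.52 on day 17. The control values were 5.79 and 5.43, 6.80 and 5.84, 6.02 and 6.30, 5.97 and 6.20, 5.80 and 6.10, 6.02 and 5.72, and 5.81 and 6.27. The diets did not overlap on any day, though on day 1 the lower CLA array was close to the higher control array.

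The difference in Gpnmb was 0.47 ± 0.34 on day 1 and was not called (adjusted p = 0.401). It was 1.85 ± 0.34 on day 2 (adjusted p = 0.00179), 4.67 ± 0.34 on day 3 (adjusted p = 4.59e-08) and 5.70 ± 0.34 on day 4 (adjusted p = 6.23e-09). The largest was 6.01 ± 0.34 on day 7, or 64.7-fold (adjusted p = 1.71e-09), and day 17 had 5.38 ± 0.34 (adjusted p = 3.68e-09). The day 2 call was lost without replicate 2 of control day 2 (1.37, adjusted p = 0.0787). Without replicate 1 of that group the day 2 difference was 2.33 ± 0.38 (adjusted p = 0.000281). In the CLA arrays days 7, 4 and 10 overlapped at the top, and day 17 and then days 3, 2 and 1 followed without overlap.

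The further probe set of Gpnmb, 1439345_at, moved the same way with smaller differences. It gave 0.07, 1.36, 2.98, 3.36, 2.99, 2.17 and 2.08 on days 1, 2, 3, 4, 7, 10 and 17, called from day 2 on, and 2.14 ± 0.36 over all days (adjusted p = 0.00166). The probe set that stood for the gene gave 4.28 ± 0.69 over all days (adjusted p = 0.00125). The further probe set was dim on control, with values of 2.92 to 3.41, against 3.14 to 6.76 on CLA.

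Cd9 encodes a tetraspanin, a membrane protein that organises other surface proteins, and is made by many cell types beside macrophages. Its CLA values were 6.54 and 7.48 on day 1, 7.21 and 8.58 on day 2, 8.98 and 9.03 on day 3, 9.89 and 9.94 on day 4, 10.21 and 10.09 on day 7, 10.27 and 10.22 on day 10, and 10.19 and 10.48 on day 17. The control values were 6.01 and 8.03, 7.07 and 7.86, 8.35 and 7.95, 7.45 and 8.30, 8.18 and 8.02, 8.32 and 8.42, and 7.91 and 8.35. On days 1 and 2 replicate 1 lay below replicate 2 in both diets and the diets overlapped, while from day 3 on every CLA array lay above both control arrays of its day.

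Cd9 was higher on CLA by 2.04 ± 0.49 on day 4 (adjusted p = 0.00394), 2.05 ± 0.49 on day 7 (adjusted p = 0.00513), 1.87 ± 0.49 on day 10 (adjusted p = 0.0093) and 2.20 ± 0.49 or 4.61-fold on day 17 (adjusted p = 0.00266). The first 3 days gave -0.01 (adjusted p = 0.992), 0.43 (adjusted p = 0.759) and 0.85 (adjusted p = 0.266) and did not pass. The day 2 difference was 0.03 without replicate 1 of control day 2. Over all 7 days Cd9 averaged 9.22 on CLA and 7.87 on control, a difference of 1.35 ± 0.29 (adjusted p = 0.00522). Single arrays decided 2 of its calls: day 4 was lost without replicate 1 of control day 4 (1.61, adjusted p = 0.0713), and day 10 without replicate 1 of CLA day 10 (1.85, adjusted p = 0.0566) or of control day 10 (1.82, adjusted p = 0.0553). Cd9 is also made by platelets and endothelium, and 6 of 8 endothelial genes fell over all days (median -0.94), while 2 of 5 platelet genes rose (median 0.02). Of all genes 19.8% fell and 18.7% rose over all days.

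**Figure D3:**
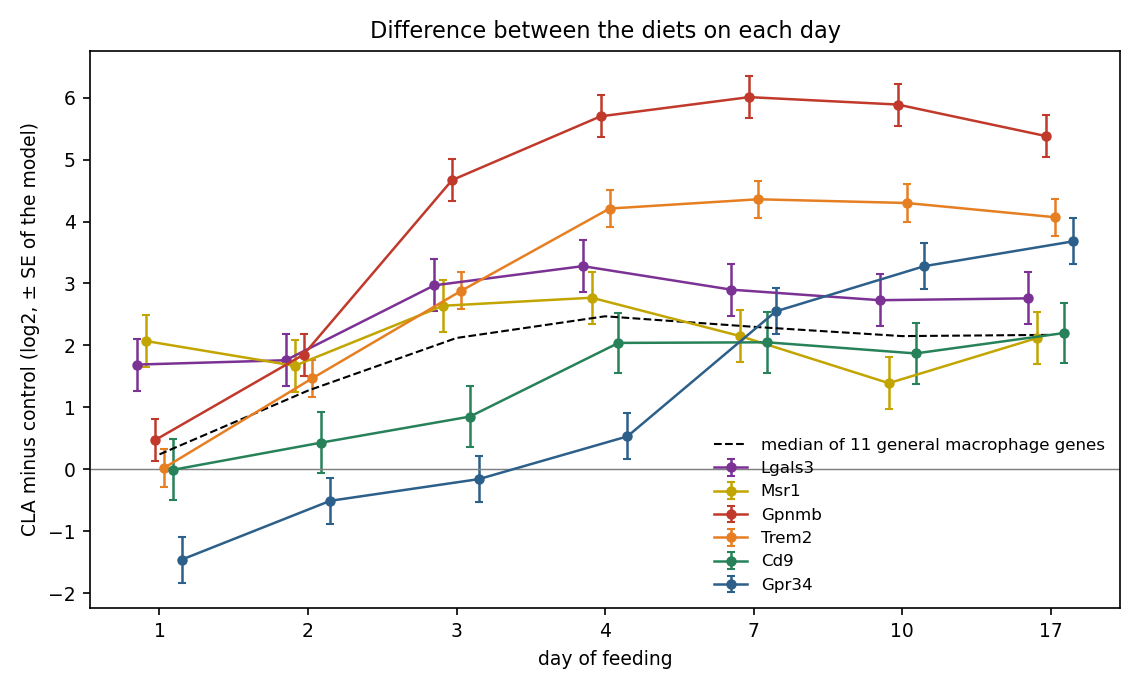
CLA minus control on each day of feeding (log2, vertical axis, with the SE of the model) for the 6 genes, and the median of 11 general macrophage genes as a dashed line. Gpnmb and Lgals3 lie above the dashed line on every day and Trem2 from day 2 on. Msr1 lies above it on days 1 to 4 only, Cd9 only on day 17, and Gpr34 lies below it on days 1 to 4 and above it from day 7.

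The change of the difference with time was tested in 2 ways. The mean difference of the late days (7, 10 and 17) less the mean of the early days (1, 2 and 3) was called as a rise for 4 of 6 genes, against 6.2% of all genes tested. It was 3.88 ± 0.30 for Gpr34 (14.8-fold, adjusted p = 1.97e-07), 3.43 ± 0.28 for Gpnmb (adjusted p = 2.55e-07), 2.78 ± 0.25 for Trem2 (adjusted p = 7.34e-07) and 1.62 ± 0.40 for Cd9 (adjusted p = 0.0131). Lgals3 gave 0.65 ± 0.34 (adjusted p = 0.265) and Msr1 -0.24 ± 0.35 (adjusted p = 0.715), so neither passed. Without replicate 1 of control day 2, Msr1 gave -0.63 ± 0.18 and was called as a fall (adjusted p = 0.0302), while Lgals3 gave 0.25 ± 0.12 (adjusted p = 0.222). Without replicate 2 of control day 2 Lgals3 gave 1.06 and was called (adjusted p = 5.15e-06).

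The interaction of diet and day was called for Gpr34 (adjusted p = 8.10e-06), Gpnmb (adjusted p = 1.38e-06) and Trem2 (adjusted p = 6.92e-06), 3 of 6 genes against 9.82% of all genes. Cd9 (adjusted p = 0.129), Lgals3 (adjusted p = 0.369) and Msr1 (adjusted p = 0.663) did not pass. Without replicate 1 of control day 2, 5 of 6 passed, against 10.6% of all genes, with Lgals3 (adjusted p = 0.000333) and Msr1 (adjusted p = 0.0237) added and Cd9 still not called (adjusted p = 0.0967). Without replicate 2 of that group 5 passed too, against 11.5% of all genes. Among control arrays alone, 0 of 6 genes changed with day by limma's F test, Msr1 alone had an unadjusted p under 0.05, and 0.115% of all genes were called.

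Between neighbouring days only 1 step was called, the increase of the Gpnmb difference by 2.82 ± 0.48 between days 2 and 3 (7.09-fold, adjusted p = 0.0277), where 0.0934% of all genes were called. It was lost without any 1 of 7 arrays: replicate 1 of CLA day 2, replicate 2 of CLA day 3, replicate 1 of control day 2 and both arrays of control days 3 and 4. Without replicate 2 of control day 2, 4 of the 6 genes passed at this step, against 2.2% of all genes in that fit. The step between days 1 and 2 had 0 of 6 called, against 3.59% of all genes. At an unadjusted p under 0.05 it had 2 of 6, where 2845 of the 18194 genes tested passed. Without replicate 2 of control day 2, 2 of 6 passed there, against 2.66% of all genes in that fit. Without replicate 1 of that group 3 of 6 passed, against 5.69%: Gpnmb (1.85, adjusted p = 0.0303), Trem2 (1.82, adjusted p = 0.0211) and Lgals3 (1.29, adjusted p = 0.00129). The increase of Gpr34 between days 4 and 7 was 2.02 ± 0.52 and did not pass (adjusted p = 0.232). No gene of the table was called in the steps between days 3 and 4, 7 and 10, and 10 and 17, where 2, 0 and 0 of the 6 genes had an unadjusted p under 0.05. Of the 18194 genes tested, 476, 549 and 537 had one in these steps.

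**Figure D4:**
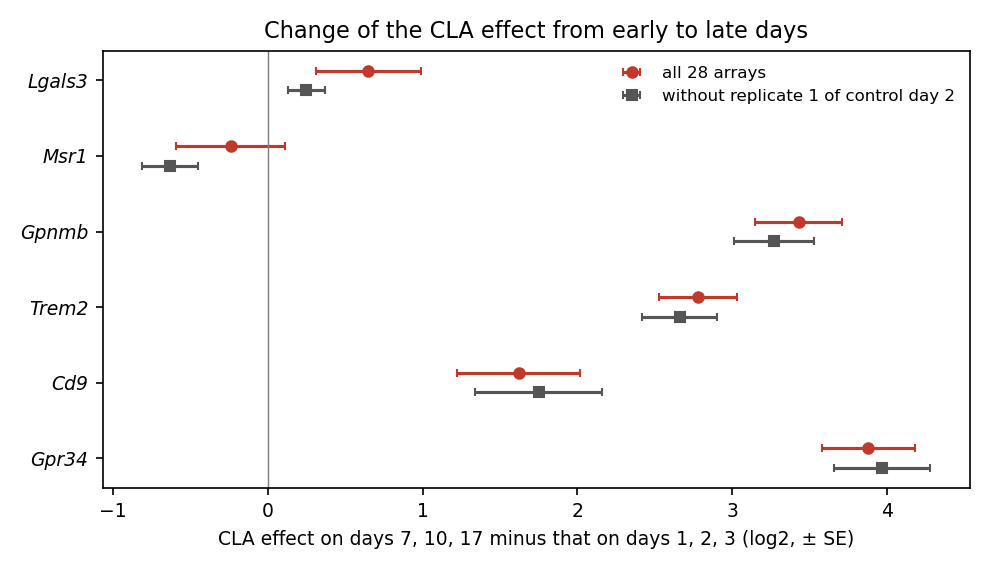
Mean CLA minus control difference of the late days (7, 10, 17) less that of the early days (1, 2, 3) (log2, horizontal axis, with the SE of the model) for the 6 genes, with all 28 arrays in red and without replicate 1 of control day 2 in grey. Gpr34, Gpnmb, Trem2 and Cd9 lie at 1.62 or more with all arrays, and Lgals3 (0.65) and Msr1 (-0.24) lie within 2 SE of 0.

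The daily differences of the 6 genes were set side by side by their root mean square distance over the 7 days, on the log2 scale. All of them come from the same arrays, so a distance is a description. The closest pair was Lgals3 and Msr1 (0.69), the farthest Gpnmb and Gpr34 (3.40), and Gpnmb and Trem2 were 1.35 apart.

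Promoters of 3 of these genes are printed, 2 of genes first called on day 2 (Trem2 and Gpnmb) and 1 of a gene called from day 1 (Lgals3). Each holds the 250 bases before the RefSeq start site in GRCm38.p6, and 4 of the 6 measured genes had an entry. Capitals mark a match to 1 of 3 motifs searched on both strands. They are TGANTCA, a loose form of the AP-1 site in which N is any base, TCACGTGA, the E-box of lysosomal genes bound by the TFEB and MITF family, and GAGGAAG, bound by the macrophage factor PU.1. The matches did not overlap one another.
Trem2: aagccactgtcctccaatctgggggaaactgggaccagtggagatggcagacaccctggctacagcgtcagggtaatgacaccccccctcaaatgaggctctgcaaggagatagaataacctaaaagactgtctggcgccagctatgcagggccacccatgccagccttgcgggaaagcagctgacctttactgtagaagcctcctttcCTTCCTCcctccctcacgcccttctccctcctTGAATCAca
Gpnmb: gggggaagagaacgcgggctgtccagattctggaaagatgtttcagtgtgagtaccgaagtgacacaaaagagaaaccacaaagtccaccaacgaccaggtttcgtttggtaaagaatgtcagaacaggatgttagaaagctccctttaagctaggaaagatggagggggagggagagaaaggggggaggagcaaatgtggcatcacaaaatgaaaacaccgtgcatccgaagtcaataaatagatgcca
Lgals3: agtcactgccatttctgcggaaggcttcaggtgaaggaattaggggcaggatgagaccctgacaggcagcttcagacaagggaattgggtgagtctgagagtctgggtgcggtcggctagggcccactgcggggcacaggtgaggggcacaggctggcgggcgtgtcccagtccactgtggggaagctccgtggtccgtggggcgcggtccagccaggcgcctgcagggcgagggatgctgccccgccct
These are chr17:48346151-48346400, chr6:49036268-49036517 and chr14:47373610-47373859, all on the plus strand. Trem2 held TGAATCA, with A at the open base of the loose AP-1 form, at positions -9 to -3 from the start. It also held CTTCCTC, the reverse complement of the PU.1 motif, at -41 to -35. Binding to these matches was not tested. Gpnmb, Lgals3 and the fourth promoter, that of Cd9, held none of the 3 motifs in this window. Of 32851 mouse promoters of the same length, 6.7% held the AP-1 motif, 0.8% the E-box and 10.6% the PU.1 motif.

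For each gene the 3 genes with the most similar 7 daily differences were looked up among the genes tested, with predicted genes left out. Nearest to Gpnmb were Il7r, an interleukin receptor chain (distance 0.36), Atp6v0d2, a subunit of the proton pump that acidifies lysosomes (0.50), and Nceh1, a cholesterol ester hydrolase (0.98). Nearest to Trem2 were Arhgap25 (0.28), Blnk, an adaptor below Syk (0.33), and Cd84, a leukocyte surface receptor (0.42). Nearest to Lgals3 were the chemokine gene Ccl9 (0.17), Basp1 (0.18) and Cytip (0.24).

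Msr1 lay nearest to Mcoln2, a cation channel of endosomes and lysosomes (0.29), Oasl1 (0.40) and Sh3bp2, a signalling adaptor (0.42). For Cd9 they were Rasa4, a Ras GTPase activator (0.23), St8sia4, a sialyltransferase (0.24), and Tifab (0.27). Nearest to Gpr34 were Fbln7, a fibulin of the extracellular matrix, at 0.66, Reps2 at 0.86 and Rnf180, a ubiquitin ligase, at 0.90. The Fbln7 differences were -0.49 on day 1, 1.49 on day 7, 2.52 on day 10 and 3.51 on day 17.

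Genes that act with TREM2 or handle lipid in macrophages were mixed. Of 19 measured, 11 rose and 2 fell over all 7 days, with a median of 0.61, against 18.7% of all genes that rose and 19.8% that fell. The largest rises were Capg, an actin-capping protein (2.71 ± 0.37, adjusted p = 0.000471), Lipa, the lysosomal acid lipase that splits cholesterol esters (2.47 ± 0.30, adjusted p = 0.000246), and Tyrobp, the TREM2 adaptor (2.47 ± 0.29, adjusted p = 0.000222). Syk rose by 1.74 ± 0.28 (adjusted p = 0.00122). The falls were Cd36 (-0.27 ± 0.06, adjusted p = 0.00474) and Fabp4 (-0.17 ± 0.05, adjusted p = 0.0393), a fatty acid transporter and a fatty acid binding protein that adipocytes make too.

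Apoe, the gene of an apolipoprotein that TREM2 can bind, did not pass over all days, with a mean of 11.70 on CLA and 12.32 on control (-0.62 ± 0.29, adjusted p = 0.133). Its differences were -0.91, -1.49, -1.78, -1.17, 0.37, 0.23 and 0.38 on days 1, 2, 3, 4, 7, 10 and 17. They were called as falls on day 2 (adjusted p = 0.0175), day 3 (adjusted p = 0.00207) and day 4 (adjusted p = 0.0338), and on no other day. The late minus early value was 1.72 (adjusted p = 0.00143). Of the 19 genes 11 rose and 1 fell in that contrast, with a median of 0.60, where 6.2% of all genes rose. The share of all genes that fell in it is not given here. In either direction 12 of the 19 had an unadjusted p under 0.05, where 4205 of the 18194 genes tested did.

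Among lysosomal genes of macrophages, of 17 measured, 15 rose and 1 fell over all days, with a median of 0.76. Of all genes tested 18.7% rose and 19.8% fell. Atp6v0d2 rose by 4.62 ± 0.76 (adjusted p = 0.00133), Gla, a lysosomal galactosidase, by 2.62 ± 0.35 (adjusted p = 0.000442) and Ctss, cathepsin S, by 2.33 ± 0.27 (adjusted p = 0.000217). Acp5, the tartrate-resistant acid phosphatase, fell by 2.17 (adjusted p = 2.82e-05). In the late minus early contrast 6 of the 17 rose and none fell, with a median of 0.58, where 6.2% of all genes rose. The share of all genes that fell in it is not given here. In either direction 11 of the 17 had an unadjusted p under 0.05, where 4205 of the 18194 genes tested did.

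Among known ligands, partners and relatives of the 7 proteins, of 20 measured, 5 rose, 1 fell and 14 did not pass over all days, with a median of 0.12. A share of 5 in 20 is near the 18.7% of all genes that rose. Cd44, a receptor for hyaluronan and osteopontin, rose by 3.33 ± 0.19 (adjusted p = 8.81e-06), with a difference of 2.86 on day 1. Gpr183, an oxysterol receptor, rose by 1.99 ± 0.26 (adjusted p = 0.000356) and the integrin gene Itga4 by 1.26 ± 0.27 (adjusted p = 0.00519). Cd81, a tetraspanin related to CD9, fell by 0.64 (adjusted p = 0.000241).

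General macrophage genes rose too. Of 11 measured, 2, 8, 9, 9, 10, 10 and 10 rose on days 1, 2, 3, 4, 7, 10 and 17, with medians of 0.24, 1.27, 2.12, 2.47, 2.30, 2.15 and 2.17. Of all genes 7.96%, 4.84%, 11.3%, 12.8%, 8.74%, 10% and 11.5% rose on those days. Over all days 9 of the 11 rose and none fell (median 1.84), against 18.7% and 19.8% of all genes. Among the 9 were Cd68, a lysosomal glycoprotein (2.78 ± 0.39), Adgre1, a macrophage surface receptor (2.34 ± 0.43), and Csf1r, the receptor for macrophage growth factor (0.75 ± 0.20, adjusted p = 0.0174). Their part in the results for the 6 genes was not tested. In whole fat pads a change in the number of cells of a type and a change in the RNA per cell cannot be told apart.

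On day 1, when Lgals3 and Msr1 were the only risers of the 6, the 2 of 11 general macrophage genes that rose were Fcgr1, an Fc receptor (2.34, adjusted p = 0.00349), and Cd53, a tetraspanin of leukocytes (1.59, adjusted p = 0.00396). On that day Adgre1 differed by -0.30 (adjusted p = 0.502), Cd68 by 0.28 (adjusted p = 0.703) and Csf1r by -0.51 (adjusted p = 0.0505). All 4 measured monocyte genes had risen by then, against 7.96% of all genes. Their daily medians were 1.63, 1.54, 1.55, 1.77, 0.67, 1.19 and 1.13, with 4, 3, 3, 3, 1, 2 and 2 called as a rise. Chil3 differed by only 0.16 on day 7 (adjusted p = 0.957). Over all days all 4 were called (median 1.55), against 18.7% of all genes. On day 1 they were Chil3 (4.53, adjusted p = 0.00398), Plac8 (1.78, adjusted p = 0.00504), Vcan (1.48, adjusted p = 0.0201) and Ccr2, a chemokine receptor of monocytes (1.27, adjusted p = 0.0301). Mean levels of the 4 genes on an array were 7.11 to 9.85 on CLA, against 6.10 to 6.91 on control without replicate 1 of day 2. Of 7 neutrophil genes 2 rose on day 1, against 7.96% of all genes. They were S100a9 (3.47, adjusted p = 0.00825) and S100a8 (2.57, adjusted p = 0.0173), both of which monocytes make too. Neither the part of these genes in the early rise of Lgals3 and Msr1 nor that of the high 3′ minus 5′ control signal of the day 1 arrays was tested.

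Of 8 genes of tissue-resident macrophages, 3 rose (Clec10a by 1.32, Mrc1 by 1.28 and Folr2 by 0.79) and 2 fell (Retnla at -1.05 and Timd4 at -0.43) over all days, with a median of 0.01. Of all genes tested 18.7% rose and 19.8% fell over all days. Counts of 1 or 2 in short lists thus say little about a cell type. Of 6 dendritic cell genes 1 rose and 2 fell (median 0.03). Of 7 T cell genes 1 fell (median -0.09), of 5 B cell genes 1 rose (median 0.03), of 7 neutrophil genes 1 fell (median -0.03) and of 6 mast cell genes none passed over all days, 2 of them at an unadjusted p under 0.05 (median 0.34). Over all days 8309 of the 18194 genes tested had an unadjusted p under 0.05.

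All 8 adipocyte genes fell over all days (median -1.59), against 19.8% of all genes, and all 9 cell cycle genes rose (median 2.66), against 18.7%. On day 1, when 5334 of the 18194 genes tested had an unadjusted p under 0.05, 1 of the 9 cell cycle genes did. None of them was called (median -0.21). On day 2 all 9 were called as a rise (median 2.17), against 4.84% of all genes. The shares over all days also stand beside the counts that follow. Of 6 genes of adipocyte progenitors 1 rose and 1 fell (median -0.07), of 7 mesothelial genes 4 fell (median -0.47), of 7 skeletal muscle genes 2 fell (median -0.59) and of 5 smooth muscle genes 1 fell (median -0.38). None of 9 kidney genes passed, 1 of them at an unadjusted p under 0.05 (median -0.06), where 8309 of the 18194 genes tested had one. Umod, a defining gene of the kidney tubule, averaged 2.41 on CLA and 2.46 on control, near the lowest value of the table, 1.90.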

How the data were processed

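Retroperitoneal fat pads, pooled from 10 mice, were profiled on 28 Affymetrix arrays, 2 for each of 14 groups of diet and day. Per the labels' protocols, extraction was with Trizol and 15 µg of total RNA went into biotinylated cRNA. The deposited values are on the log2 scale and come from the authors' RMA step, per the submitters' processing notes, which give no version. RMA corrects background, equalises the arrays by quantiles and summarises each probe set, so a change in the total RNA of a pad is not visible. Values of 1.90 to 14.18, rounded to 2 decimals, were used as deposited, with no filter. The build behind the probe annotation is not given in the sources used here. Promoter sequences are from RefSeq, assembly GRCm38.p6.

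Of 45101 probe sets, 34958 name 1 gene, and 34754 of these matched the RefSeq gene table by gene ID. The 932 that name several genes and the 9211 without a name here were left out. Of the 18194 genes tested, 9012 had more than 1 probe set. Further probe sets were tested in a fit over all 34958.

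limma 3.58.1 in R 4.3.3 (lmFit and eBayes, two-sided) fitted the 14 groups with 14 residual degrees of freedom and gave the daily differences, the steps between days, the late minus early contrast, the interaction and the control groups' F test by day. For the difference over all 7 days, group means were fitted with a day block (6 residual degrees of freedom). p-values were adjusted by Benjamini and Hochberg over all genes of a comparison. The scripts were tested on simulated data. Plots used matplotlib 3.10.9 (Python 3.11.15).

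The 7 genes and the lists beside them were chosen with earlier results of these data known, and the gene lists come from textbook knowledge. Named besides the 7 genes were their further probe sets, the 3 genes nearest to each, the 3 largest rises and 2 largest falls among called genes of 3 lists, and a few marker genes, of which Plin1 was not analysed here. Syk, Cpa3 and the genes named from the monocyte, neutrophil and resident macrophage lists, with Fcgr1, Cd53, Kit and Ms4a2, were chosen after their values were seen. Whether the labels' replicate numbers pair arrays was checked by correlating the deviations of same-numbered arrays. It was 0.101 to 0.566 on 6 days and 0.098 on day 7. The numbers were taken as pairs only if it passed 0.1 on every day, which it did not, so the fits without a block are the ones reported. Alternatives were the array scaling, a filter on dim genes, the choice of probe set, a variance trend, a replicate block, each array left out in turn and, for some comparisons, other samples or days.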

Additional observations from a re-analysis of the deposited data

Results flagged for a closer look

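For 4 of the 6 genes the difference between the diets itself differed between late and early days, tested by limma as the mean of days 7, 10 and 17 less the mean of days 1, 2 and 3. The value was 3.43 for Gpnmb, 2.78 for Trem2, 1.62 for Cd9 and 3.88 for Gpr34. Late differences exceeded early ones in all 4, and Gpr34 was the one gene whose CLA arrays lay below control first and above it later.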

How the results depend on the processing

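Of 71 results, 46 were scored as kept under every alternative run, as were 2684 of the 2753 alternative values. For a single gene, kept means the same direction and the same side of the threshold. Counts of genes were in some cases scored as kept although the count itself changed, as on days 4 and 10. Values not called and near 0 changed sign: Cd9 on day 1 gave 0.07 with quantile normalisation and -1.02 to 1.00 with 1 array left out. With 1 array left out, Cd9 on day 2 ran from -0.25 to 1.12, Gpr34 on day 3 from -0.75 to 0.43, Trem2 on day 1 from -0.30 to 0.34 and late minus early Msr1 from -0.63 to 0.13. Leaving out 1 array gave 1 to 2 risers on day 1, 0 to 4 on day 2, 4 to 5 on day 4, 4 to 6 on day 10, 3 to 5 genes with an interaction, 0 to 2 changed among controls by day, 0 to 3 at the step between days 1 and 2 and 0 to 4 at the step between days 2 and 3. Day 2 had 0 risers with the 4 arrays of that day alone: Gpnmb had an adjusted p of 0.295, Trem2 0.274, Lgals3 0.442 and Msr1 0.435. Cd9 on day 3 (adjusted p = 0.0158) and Gpr34 on day 4 (adjusted p = 0.042) were called with the arrays of the day alone.

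The replicate block left 1 gene called at the step between days 1 and 2, where none was called without it. A replicate block within each day, chosen after seeing the data, called 1 gene among controls by day, 2 at the step between days 1 and 2 and 1 between days 4 and 7, and Cd9 on day 3 (adjusted p = 0.0143) and Gpr34 on day 4 (adjusted p = 0.041). Over all days Gpr34 was called when the 28 arrays replaced the group means (1.13, adjusted p = 0.0248, and 0.0266 with a replicate block). The block changed no other call. Also chosen after seeing the data, leaving out the replicate 1 arrays of days 1 and 2 gave 6 genes with an interaction, 3 at the step between days 1 and 2 and 0 between days 2 and 3, and called Cd9 on day 3 (adjusted p = 0.00705) and the late minus early fall of Msr1 (-0.61, adjusted p = 0.0313). That last step had 0 with quantile normalisation and 0 with all probe sets tested together. For late minus early, days 10 and 17 minus days 1 and 2 changed no call. Leaving out replicate 1 or 2 of every group was run over all days only, since daily tests then have no residual degrees of freedom. The number of arrays, and Lgals3 values near the top of the scale, limit what these values resolve. The causes were not tested.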
